A study of Mus musculus with 54 samples.

Results

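Complement and acute-phase genes encode proteins that fat cells, like liver cells, secrete into the blood as part of innate immunity. The genes described here were C3, C4b, C2, Cfb, Serping1, Hp, Saa3, Lcn2 and Orm1, chosen by name as probes whose annotated symbol was one of the 9. A probe was found for 8 of them, 1 each, among 16637 genes with a named probe. No probe carried the symbol C4b, and C4a, a near-identical copy whose signal cannot be told apart from that of C4b here, is given beside the others and is not counted with them.

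The cells were 3T3-L1, an established mouse preadipocyte line that acquires fat cell markers in culture. They were sampled at 18 times between 0 and 288 h in 3 arms: untreated cells undergoing normal differentiation, cells in 0.5% DMSO (the solvent), and cells in 2 µM prieurianin, a limonoid from plants. Each arm had 1 array per time, 54 in all, and each measured a Cy5-labelled amplified RNA on a single-colour oligonucleotide array. The labels do not say whether each time was a separate culture, when the differentiation stimulus was given, or whether the prieurianin arm also held DMSO. In a bulk sample, fewer cells of a type and less RNA per cell cannot be told apart.

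Complement is a cascade of blood proteases. The classical and lectin routes, through C4 and C2, and the alternative route, through factor B, each build an enzyme that cuts C3, and the C1 inhibitor restrains the first step of the classical and lectin routes. Acute-phase proteins are those whose blood level changes in inflammation, classically under interleukin 6 and interleukin 1 acting through STAT3, NF-kB and C/EBP factors. Several of them, C3, haptoglobin, lipocalin 2 and serum amyloid A3 among them, are also products of adipose tissue.

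The sequence just upstream of a start site is where such factors are read, so the promoters of C3, Lcn2 and Saa3 are shown. These were the members with a promoter sequence in the sources used here. Those of C2, Cfb, Serping1, Hp and Orm1 were not available and were not searched. The 250 bases before each RefSeq start are printed 5′ to 3′ on the gene's strand, in build GRCm38.p6, with each match to TTGCNNAA, a core that C/EBP factors recognise, in capitals.
C3, chr17:57228137-57228386, minus strand: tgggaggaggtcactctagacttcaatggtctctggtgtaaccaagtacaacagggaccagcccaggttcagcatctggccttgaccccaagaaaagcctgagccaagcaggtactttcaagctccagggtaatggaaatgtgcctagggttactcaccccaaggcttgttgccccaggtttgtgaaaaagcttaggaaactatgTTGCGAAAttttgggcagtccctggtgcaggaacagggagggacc
Lcn2, chr2:32387740-32387989, minus strand: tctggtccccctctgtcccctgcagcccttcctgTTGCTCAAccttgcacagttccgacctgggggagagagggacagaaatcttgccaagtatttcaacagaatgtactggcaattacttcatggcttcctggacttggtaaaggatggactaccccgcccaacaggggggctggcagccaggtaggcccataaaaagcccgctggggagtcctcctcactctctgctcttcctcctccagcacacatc
Saa3, chr7:46715677-46715926, minus strand: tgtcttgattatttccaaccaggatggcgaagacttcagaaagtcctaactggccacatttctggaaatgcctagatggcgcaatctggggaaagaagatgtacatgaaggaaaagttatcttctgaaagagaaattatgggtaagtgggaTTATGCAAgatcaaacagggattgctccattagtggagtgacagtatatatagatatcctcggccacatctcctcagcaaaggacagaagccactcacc
Each of the 3 windows held the core, searched on both strands. It lay 45 to 38 bases before the C3 start and 216 to 209 before the Lcn2 start on the gene's strand, and 99 to 92 before the Saa3 start on the opposite strand. Of 32851 mouse windows of 250 bases, 9.56% held it. The STAT-type spacing TTCNNNGAA was in 7.02% of windows and the kappa B motif in 3.9%, and neither was in these 3. A match describes letters only.

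Levels below are linear, quantile-normalised intensities. Differences are those of log2(value + 16), so changes of dim genes are understated. A probe within 50 units of its array's highest value was called saturated, and saturated values have no order among themselves. Tests used limma over 12792 genes, all 8 members included, with a Benjamini-Hochberg adjusted p of 0.05 as the threshold and ± for standard errors of the fit. Times within a window (0.25 to 3 h, 5 to 48 h, 96 to 288 h) took the place of repeats, although adjacent times depend on each other. Arms were compared at matched times, so those p-values rest on how an arm difference varied from time to time, pooled over windows. Changes over the course set a window against 0 to 3 h within an arm, without matching times. Their error, and that of differences of courses, is the spread of levels between times of an arm and window. That spread includes the change of level along the window, so a course result short of the threshold does not show that nothing changed.

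The arrays' deposited values had medians of 88 to 313, and 93 to 176 probes on each were saturated. The prieurianin array at 192 h stood apart. On it 62 of the tested genes (0.485%) lay more than 2-fold below every other array, against at most 29 on any other array, and 5 of the 14 genes more than 4-fold below were members. On the high side it was not alone: 27 genes lay more than 2-fold above every other array. The prieurianin array at 288 h also had 27 such genes above, and 28 below. Its correlation over all tested genes was highest with the untreated array at 144 h (r = 0.971). The summed level of 9 adipocyte markers was 338512 there, against 55515 to 109464 on the other late prieurianin arrays, 173262 to 301934 on late DMSO arrays and 172734 to 283195 on late untreated arrays. What set that array apart was not tested, and no value here checks its label independently, so late prieurianin values over all arrays hold only if the label is right. Late prieurianin results are therefore also given without it. At 0 to 3 h the adipocyte sum was 28677 to 42525 over all arms, below every late value. Macrophages also make several of these proteins, and of 10 macrophage markers with a probe, Adgre1, Ptprc and Tyrobp were under the filter on low values. The sum of all 10, these 3 included, was 6041 to 9326 at 0 to 3 h and 1174 to 5865 late, lowest on the prieurianin array at 192 h. Without that array the late prieurianin range was 2727 to 5865, against 1969 to 5104 in DMSO and 1998 to 4911 in untreated cells. Their part in the results was not tested. Among hepatocyte markers Alb, Ttr and Fgb were under the filter, and the 7 with a probe, these included, summed to 426 to 1987.

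**Figure D1:**
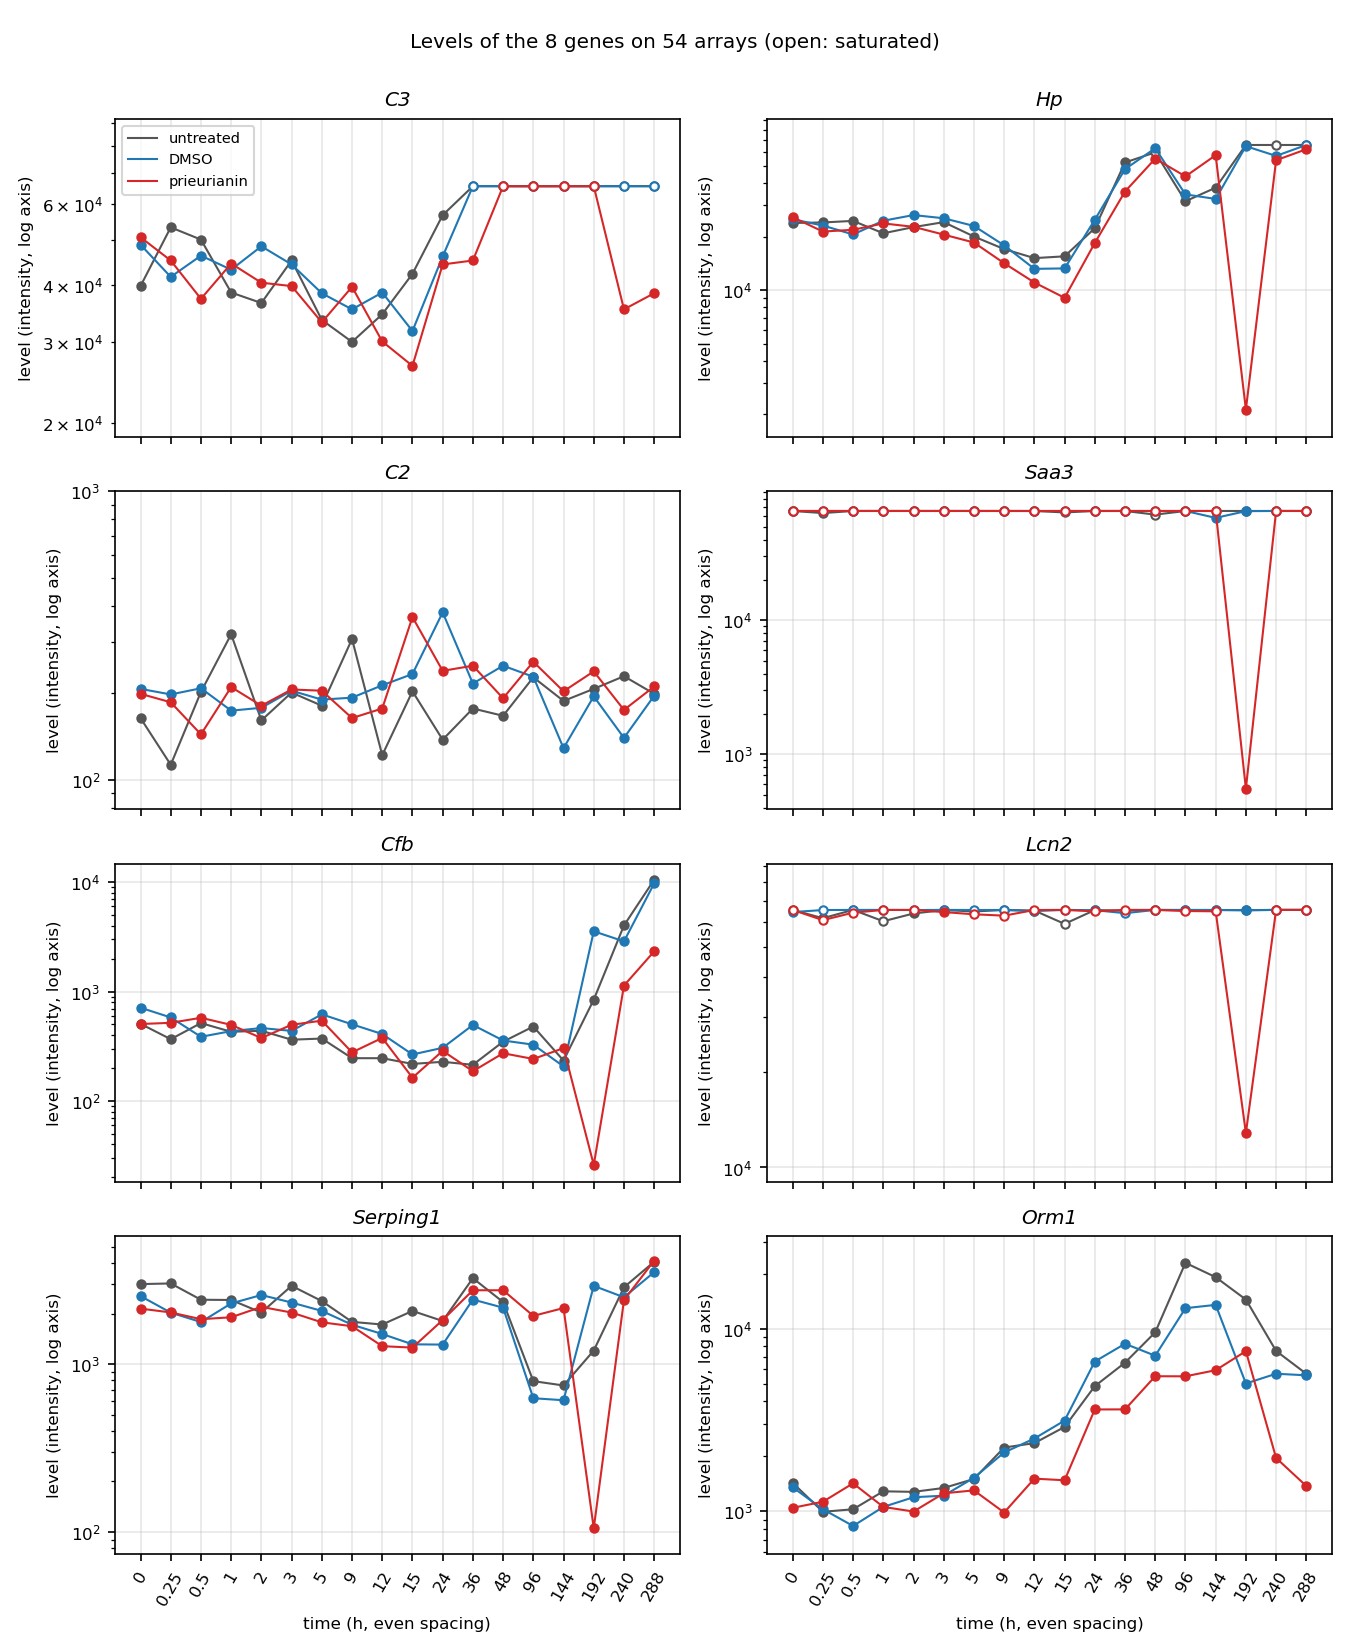
Quantile-normalised level (log axis) of the 8 genes against time (18 times, evenly spaced on the axis) in untreated (grey), DMSO (blue) and prieurianin (red) cells, 1 array per point; open points are saturated. Saa3 and Lcn2 sit at the ceiling outside the prieurianin array at 192 h, Orm1 climbs from about 5 h in both controls, and Cfb climbs after 144 h.

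C3, the protein on which all complement routes converge, was bright in resting cells and climbed to the ceiling of the array during differentiation. At 0 to 3 h it ran from 36484 to 53291 in untreated cells (median 42426), 41583 to 48864 in DMSO (45254) and 37256 to 50714 in prieurianin (42422). The 3 arms overlapped, and all then dipped, to 30027 at 9 h in untreated cells, 31707 at 15 h in DMSO and 26630 at 15 h in prieurianin. From 36 h to 288 h C3 was saturated on every untreated and DMSO array. In prieurianin it reached the ceiling at 48 h and stayed there to 192 h, then read 35342 at 240 h and 38312 at 288 h. The level at 240 h was below the range of that arm's first 3 h and the level at 288 h inside it.

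Against 0 to 3 h, C3 at 96 to 288 h rose at least 1.51-fold in untreated cells (log2 difference 0.59 ± 0.20, limma adjusted p = 0.015) and at least 1.44-fold in DMSO (0.53 ± 0.20, p = 0.032), bounds because the late values were saturated. In prieurianin the difference was 0.28 ± 0.20 (p = 0.29), and 0.20 ± 0.21 (p = 0.50) without the array at 192 h. The untreated call was lost with median centring (adjusted p = 0.066) or unscaled values (0.096), and the DMSO call with unscaled values (0.063) or with any of 0.25, 1, 3, 96 or 144 h left out (0.052 to 0.061). Between arms, late C3 differed by -0.33 ± 0.14 for prieurianin minus DMSO (p = 0.093). Without the prieurianin array at 192 h the fitted difference was -0.42 ± 0.15 against DMSO (p = 0.032) and -0.42 ± 0.15 against untreated (p = 0.029). These are not exact sizes, because every late control value was saturated. At 96 and 144 h all arms were at the ceiling, and at 240 and 288 h prieurianin was below control levels that are themselves lower bounds.

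C4a, at 76 to 201 in untreated cells in the first 3 h, was dim at the start and brighter late. The late untreated levels at 96, 144, 192, 240 and 288 h were 615, 611, 1046, 3189 and 4465. In DMSO they were 489, 470, 1619, 3358 and 4508. In prieurianin they were 406, 484, 124, 349 and 449. Both controls kept climbing after 144 h while the prieurianin arm went no higher than 484, and from 192 h on no prieurianin value overlapped a control value. The course difference was 3.24 ± 0.44 in untreated cells (adjusted p = 7.1e-08), 3.38 ± 0.44 in DMSO (3.5e-08) and 1.38 ± 0.44 in prieurianin (0.013), or 1.70 ± 0.45 without the array at 192 h (0.0031). Tested against each other, the courses did not pass the threshold (prieurianin minus DMSO -2.0 ± 0.62, adjusted p = 0.17, and minus untreated -1.86 ± 0.62, p = 0.16). The error of that test includes the climb along the late window, so it cannot show that the courses were alike. Late C4a was 4.14-fold lower in prieurianin than in DMSO (-2.05 ± 0.37, adjusted p = 0.00024), and -1.75 ± 0.39 lower without the array at 192 h (0.00084).

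C2, the protease subunit that joins C4 in the classical C3-cutting enzyme, stayed dim. Its level ran from 113 to 381 over all arrays, close to the median probe, and whether it was above background is not known because the files give no detection call. Its largest late difference was 0.28 ± 0.19 for prieurianin minus DMSO (adjusted p = 0.35), or 0.27 ± 0.21 (p = 0.39) without the prieurianin array at 192 h. With all times in the fit it passed the test in no comparison. With 9 h left out it passed at 5 to 48 h for prieurianin minus untreated (0.47, limma adjusted p = 0.022) and DMSO minus untreated (0.53, p = 0.014).

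Cfb, factor B, the alternative-route counterpart of C2, was low for 6 days and then climbed steeply. At 0 to 3 h it ran from 363 to 515 in untreated cells (median 433), 386 to 712 in DMSO (451) and 376 to 576 in prieurianin (501). At 5 to 48 h the untreated range was 214 to 372 (median 246), the DMSO range 266 to 619 (409) and the prieurianin range 163 to 542 (278). At 96, 144, 192, 240 and 288 h, Cfb in untreated cells read 479, 234, 843, 4022 and 10525. DMSO cells read 327, 207, 3556, 2878 and 9749. Prieurianin cells read 242, 304, 26, 1134 and 2331. All arms were higher at 240 and 288 h than at 144 h, and both controls stood above prieurianin at 192, 240 and 288 h, whereas at 144 h prieurianin was the highest of the 3.

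Late Cfb was 3.83-fold lower in prieurianin than in DMSO (-1.94 ± 0.46, adjusted p = 0.0039; lower at 4 of 5 times) and 3.45-fold lower than in untreated cells (-1.78 ± 0.46, p = 0.0051). Without the prieurianin array at 192 h the differences were -1.06 ± 0.32 (p = 0.012) and -0.90 ± 0.32 (p = 0.029). With only the times of the late window in the fit, neither was called (adjusted p = 0.18 and 0.17), nor without time in the fit (0.13 in both). The change over the course was 1.59 ± 0.71 in untreated cells (p = 0.075), 1.57 ± 0.71 in DMSO (p = 0.083) and -0.37 ± 0.71 in prieurianin (p = 0.74), none past the threshold. Without the prieurianin array at 192 h the untreated change passed it (p = 0.046) and the prieurianin difference turned sign, to 0.44 ± 0.68 (p = 0.67). The untreated change also passed with 96, 144 or 192 h left out (limma adjusted p = 0.033, 0.0097 and 0.042) or with time as a random block (0.047). The DMSO change passed with 96 or 144 h left out (0.022 and 0.0088).

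Serping1 encodes the C1 inhibitor, a serpin that blocks C1r, C1s and the lectin-route proteases. Its level at 0 to 3 h was 2035 to 3035 in untreated cells (median 2682), 1786 to 2589 in DMSO (2320) and 1857 to 2199 in prieurianin (2037). At 96, 144, 192, 240 and 288 h the untreated levels were 793, 747, 1207, 2879 and 4092. The DMSO levels were 627, 610, 2935, 2510 and 3544. The prieurianin levels were 1944, 2164, 105, 2415 and 4150. Both controls were at their lowest at 96 and 144 h, at most 793, and then returned, and prieurianin cells showed no such dip at those times. The log2 difference from DMSO was 1.61 at 96 h and 1.80 at 144 h, -4.61 at 192 h, and -0.06 and 0.23 at the last times.

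Over the late window Serping1 did not pass the test (prieurianin minus DMSO -0.21 ± 0.44, adjusted p = 0.81; minus untreated -0.16 ± 0.44, p = 0.86). Without the prieurianin array at 192 h the sign turned and both comparisons passed it, at 0.74 ± 0.23 (p = 0.017) and 0.79 ± 0.23 (p = 0.0095), so 1 array decided the direction.

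Hp encodes haptoglobin, which binds free haemoglobin in the blood. It was bright from the start, at 20875 to 24509 in untreated cells (median 23934), 20559 to 26426 in DMSO (24784) and 20518 to 25708 in prieurianin (22268) at 0 to 3 h. All arms dipped between 9 and 15 h. At 15 h Hp read 15489 in untreated cells, 13246 in DMSO and 9055 in prieurianin, the lowest level of the other 53 arrays. It then recovered to 59534, 62790 and 54883 at 48 h, the untreated value being saturated. At 96, 144, 192, 240 and 288 h prieurianin cells read 43590, 57383, 2130, 53752 and 61983, against 34537, 32563, 64458, 56843 and 65487 in DMSO and 31611, 37666 and then saturation in untreated cells.

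At each of the 7 times from 5 to 48 h Hp was lower in prieurianin than in either control, by 0.19 to 0.55 log2 units against DMSO. The mean difference was -0.36 ± 0.37 with all arrays (adjusted p = 0.61). Without the late prieurianin array at 192 h, which enters the shared error, it was -0.36 ± 0.09 (p = 0.0067 against DMSO and 0.0023 against untreated). Late Hp was not called in either setting (against DMSO -0.78 ± 0.43, p = 0.23, and 0.24 ± 0.12, p = 0.12, without that array). The rise from 0 to 3 h to the late window was called only without that array, at 1.12 ± 0.36 in untreated cells (p = 0.011), 1.01 ± 0.36 in DMSO (p = 0.023) and 1.25 ± 0.38 in prieurianin (p = 0.0099). Saturation on 3 late untreated arrays and 1 late DMSO array makes the control rises lower bounds.

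Saa3, an inducible serum amyloid A made outside the liver, and Lcn2, lipocalin 2, which binds bacterial iron carriers, were at the ceiling throughout. Saa3 was saturated on 51 of 54 arrays and Lcn2 on 45. Changes above that ceiling, over the course or between arms, were not measurable here. The prieurianin array at 192 h was the exception, with Saa3 at 554, where the lowest of the other 53 arrays read 58154, a gap of 102-fold. Lcn2 read 12862 there, against a lowest value of 59133. The late change of Saa3 in prieurianin, -1.37 ± 0.53 (adjusted p = 0.045), rested on that array alone, and without it Saa3 was at the ceiling on the remaining late prieurianin arrays.

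Orm1 encodes orosomucoid, a plasma glycoprotein that binds drugs and lipophilic molecules, and was lower in prieurianin in both later windows. At 0 to 3 h it ran from 994 to 1432 in untreated cells (median 1283), 831 to 1354 in DMSO (1125) and 997 to 1423 in prieurianin (1092). The arms overlapped. At 5 to 48 h the range was 1504 to 9564 in untreated cells (median 2898), 1526 to 8272 in DMSO (3140) and 985 to 5493 in prieurianin (1510). Prieurianin was below both controls at all 7 of those times. At 96, 144, 192, 240 and 288 h Orm1 read 22953, 19163, 14448, 7557 and 5664 in untreated cells. It read 12959, 13511, 5011, 5669 and 5557 in DMSO. It read 5487, 5927, 7538, 1959 and 1376 in prieurianin. Untreated levels were highest at 96 h and lower at each later time, and prieurianin lay below untreated cells at all 5 late times and below DMSO at 4 of them, the exception being 192 h.

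From 0 to 3 h to 5 to 48 h Orm1 rose 2.89-fold in untreated cells (1.53 ± 0.41, adjusted p = 0.0076) and 3.35-fold in DMSO (1.74 ± 0.41, p = 0.0024), and differed by 0.90 ± 0.41 in prieurianin (p = 0.14). To the late window it rose 9.93-fold in untreated cells (3.31 ± 0.45, p = 8.4e-08), 6.94-fold in DMSO (2.79 ± 0.45, p = 2.6e-06) and 3.18-fold in prieurianin (1.67 ± 0.45, p = 0.0034), or 2.66-fold without the array at 192 h (1.41 ± 0.47, p = 0.020). Between arms at matched times, Orm1 was 1.73-fold lower in prieurianin than in DMSO at 5 to 48 h (-0.79 ± 0.17, p = 0.0021) and 2.10-fold lower late (-1.07 ± 0.20, p = 0.00039). Against untreated cells it was 1.65-fold lower at 5 to 48 h (-0.72 ± 0.17, p = 0.0016) and 3.32-fold lower late (-1.73 ± 0.20, p = 3.3e-07). Without the prieurianin array at 192 h the late differences were -1.38 ± 0.17 (p = 3.3e-07) and -2.04 ± 0.17 (p = 1.8e-10). With time as a random block the calls at 5 to 48 h were lost (adjusted p = 0.076 against DMSO and 0.056 against untreated), and median centring lost the one against DMSO (0.059). The late call against DMSO was lost when only the times of that window were fitted (0.076), and without time in the fit the call against DMSO was lost in both windows (0.35 and 0.20) and that against untreated at 5 to 48 h (0.25).

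DMSO itself lay near untreated cells for Orm1 at 5 to 48 h (0.07 ± 0.17, p = 0.81) and below them late (-0.66 ± 0.20, p = 0.061), the latter passing the test without the prieurianin array at 192 h (p = 0.012). Late mean log2 levels of Orm1 were in the order untreated 13.58 ± 0.87 (SD over 5 times), DMSO 12.92 ± 0.71 and prieurianin 11.85 ± 1.08. Neighbours in that order differed by less than the larger SD of the pair. These SDs include the change of level along the late window, so they do not measure the spread of arm differences at matched times. Orm1 has a near-identical neighbour, Orm2, whose probe gave r = 0.962 with that of Orm1 over 54 arrays, and signal shared between the copies cannot be told apart here.

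**Figure D2:**
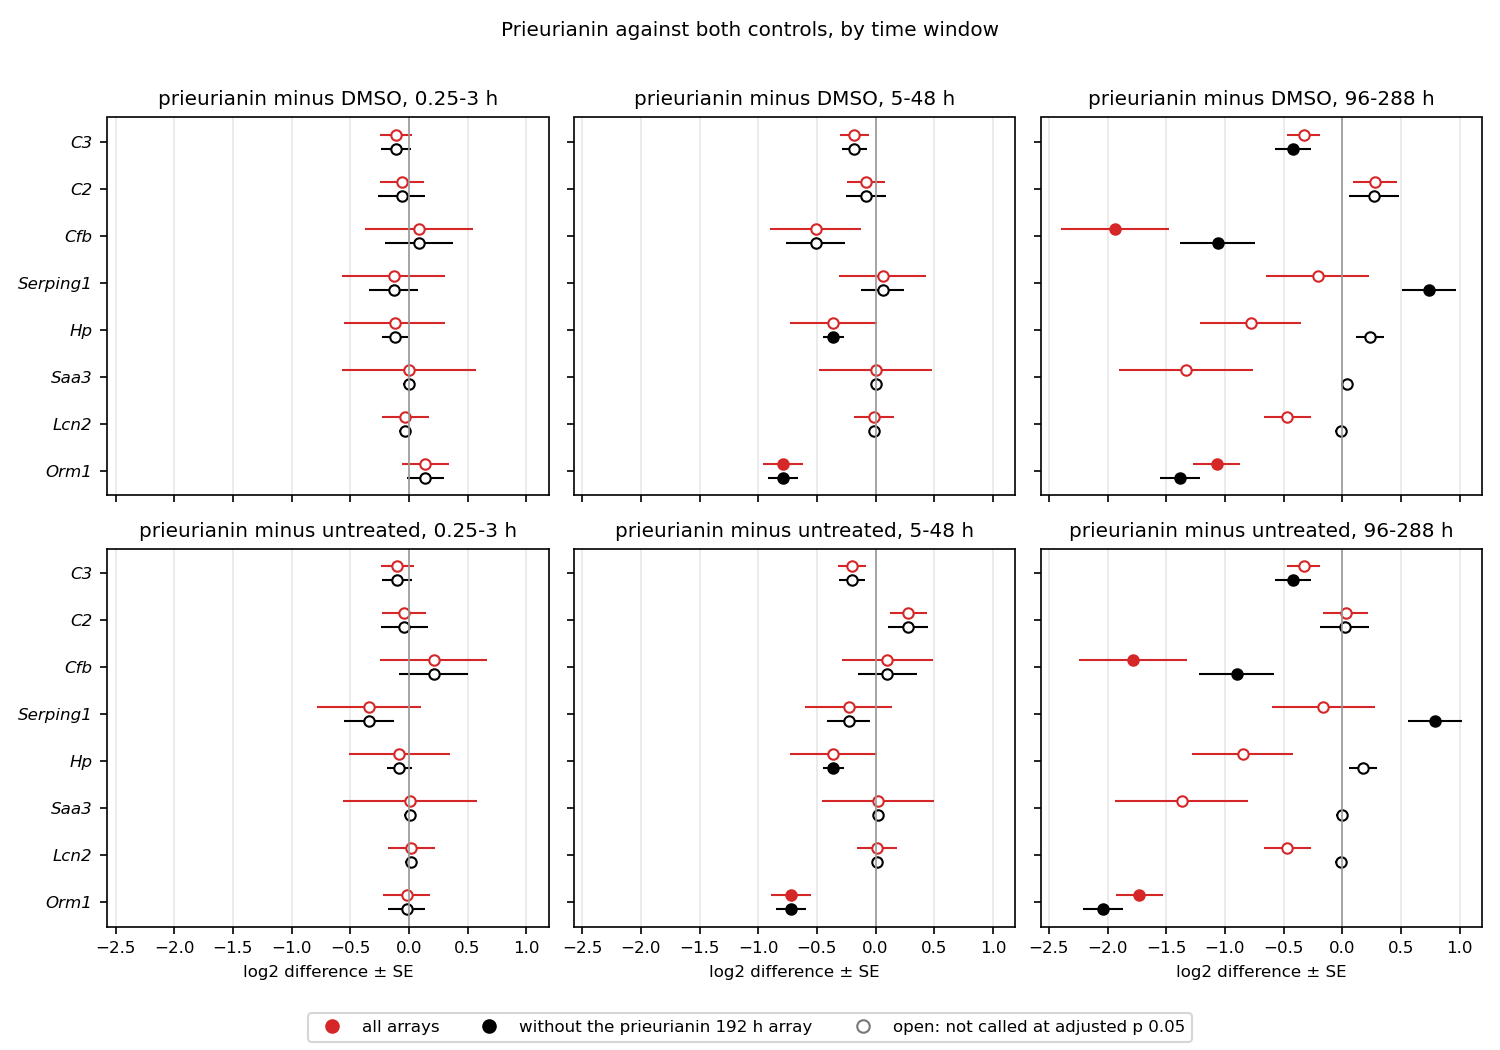
Log2 difference ± SE of prieurianin minus DMSO (top) and minus untreated (bottom) for the 8 genes in 3 time windows, with all arrays (red) and without the prieurianin array at 192 h (black); filled points passed an adjusted p of 0.05. Orm1 is filled at 5-48 h and 96-288 h in both rows, Cfb at 96-288 h, and Serping1 changes side at 96-288 h when the array is left out.

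Counted together, 0 of the 8 members passed the limma test at 0.25 to 3 h in any pair of arms, and 0 had an unadjusted p under 0.05. Over all genes 0.0% were called for prieurianin minus DMSO, 5.93% for prieurianin minus untreated and 3.54% for DMSO minus untreated. At 5 to 48 h 1 of 8 (Orm1) was lower in prieurianin than in DMSO, where 4.51% of all genes were lower and 6.62% higher. The same gene was lower than in untreated cells, where 15.5% of all genes were lower. Late, 2 of 8 (Cfb and Orm1) were lower than in DMSO against 9.36% of all genes, with 7.32% higher. Cfb and Orm1 were also lower than in untreated cells, against 10.5% of all genes, with 11.4% higher. By limma 0 members were higher in prieurianin in these 4 comparisons. In either direction, 5 of 8 had an unadjusted p under 0.05 in each late one and 1 of 8 in each at 5 to 48 h. The late 5 included Saa3 and Lcn2, which were at the ceiling on the other late prieurianin arrays. Without the array at 192 h the late counts were 5 of 8 against DMSO and 4 of 8 against untreated. The share of all genes at an unadjusted p under 0.05 was not counted, so counts at that threshold have no background here. The median late difference from DMSO was -0.63 over the members and 0.02 over all genes, and the 2 comparisons share the prieurianin arrays. Without the array at 192 h, 3 of 8 (C3, Cfb and Orm1) were lower than in DMSO against 14.5% of all genes and 1 of 8 (Serping1) was higher against 12.2%. The median over the members was then 0.02. The same 4 genes passed against untreated cells, 3 lower against 14.5% of all genes and 1 higher against 15.0%.

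For DMSO minus untreated, 0 of 8 passed the limma test at 5 to 48 h and 0 late, with 1 at an unadjusted p under 0.05 in each, where 20.3% and 3.65% of all genes were called. Over the course, 2 of 8 (C3 and Orm1) rose late in untreated cells, where 34.3% of all genes changed in either direction, and the same 2 rose in DMSO, where 32.6% did. In prieurianin 1 of 8 (Orm1) rose and Saa3 fell, the latter through the array at 192 h, where 30.4% of all genes changed. At 5 to 48 h 1 of 8 (Orm1) rose in untreated cells and in DMSO, where 16.3% and 17.4% of all genes changed. By limma 0 of 8 did in prieurianin, where 14.8% changed and 1 of 8 had an unadjusted p under 0.05. Tested by limma as a difference of courses between arms, 0 of 8 members passed against DMSO at 5 to 48 h (0.422% of all genes called) or late (0.336%), or against untreated at 5 to 48 h (0.367%) or late (0.594%). At an unadjusted p under 0.05, 1 did so late against untreated and 0 in the others. The late difference of courses for Orm1 was -1.13 ± 0.63 against DMSO (p = 0.60) and -1.64 ± 0.63 against untreated (p = 0.27). At matched times the late Orm1 differences were -1.07 ± 0.20 and -1.73 ± 0.20. The course test has the larger error because it includes the change of level along a window. Its counts therefore cannot show that the courses were alike.

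The prieurianin array at 192 h split the members. Below every other array were Saa3 (554 against at least 58154), Serping1 (105 against 610), Lcn2 (12862 against 59133), Cfb (26 against 163) and Hp (2130 against 9055). C3 was saturated on it, Orm1 read 7538 and C2 read 238, each inside the range of the other arrays. Other genes far below all other arrays there were the chemokines Cxcl1 (380 against at least 8968), Cxcl5 (105 against 1810) and Ccl2 (223 against 2672), and Slpi, a secreted protease inhibitor (365 against 3564). Il6 read 24 there, against 54 or more elsewhere. Cebpa, a factor that drives fat cell genes, read 1545, and Cfd, the fat cell protease adipsin that activates factor B, was at 65487, both in the range of late control arrays.

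**Figure D3:**
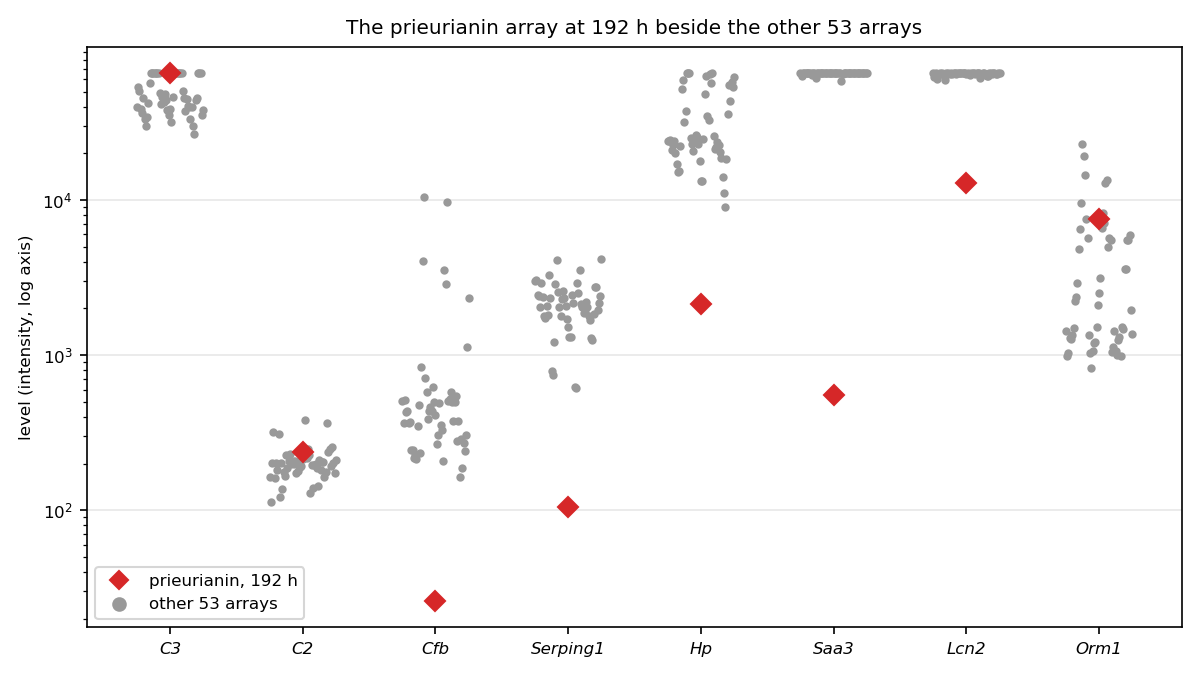
Quantile-normalised level (log axis) of each of the 8 genes on the prieurianin array at 192 h (red diamond) and on the other 53 arrays (grey points, spread sideways only for legibility). Cfb, Serping1, Hp, Saa3 and Lcn2 lie below all grey points, and C3, C2 and Orm1 lie among them.

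Members differed in which genes followed the same pattern over the 54 arrays, given here as a description because the arrays share times and arms. Orm1 was most like Orm2 (r = 0.962), Adamts15 (0.946) and Cxcl13 (0.935). C3 was most like Prickle1 (0.908), Cacna1g (0.885) and Fggy (0.881). Cfb was most like Clu (0.842), Vnn3 (0.835) and Fads3 (0.812), where Clu encodes clusterin, an inhibitor of the terminal complement complex. C2 was most like Celsr3 (0.919), Eln (0.878) and Qrfpr (0.861). Serping1 was most like Cxcl1 (0.81), Nucb1 (0.806) and Ifitm3 (0.805), and without the prieurianin array at 192 h most like Col1a1 (0.778). Hp was most like Lbp (0.845), Tspan4 (0.838) and Serpina3c (0.83), and without that array most like Reck (0.912). Saa3 and Lcn2 gave r = 0.995 with each other, and Saa3 gave r = 1.0 with Rap1b, another probe at the ceiling (60859 on that array, at least 65436 elsewhere), so their likeness rested on 1 array. Without it Saa3 was most like Nrip3 (0.722) and Lcn2 most like Pabpc1 (0.651).

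Among other acute-phase proteins, more genes rose than fell with differentiation, and 7 of 15 tested were lower in prieurianin than in DMSO late. Of 30 listed, 22 had a probe and 15 were tested. In untreated cells 7 of 15 rose by 96 to 288 h and 2 fell, where 34.3% of all genes changed and 17.3% fell. The largest rises were in Itih4, an inter-alpha-trypsin inhibitor chain (3.50 ± 0.66, limma adjusted p = 3.2e-05), Orm2 (3.13 ± 0.50, p = 2.3e-06) and Serpina3n (2.69 ± 0.54, p = 8.9e-05). The falls were Ptx3, a pentraxin (-2.12 ± 0.63, p = 0.0068), and Cd14, the lipopolysaccharide co-receptor (-1.89 ± 0.35, p = 2e-05). The list's median change was 1.10, against 0.01 over all genes. Late, 7 of 15 were lower in prieurianin than in DMSO, against 9.36% of all genes, and 0 were higher, against 7.32%. The largest differences were in Itih4 (-2.09 ± 0.53, p = 0.0067), Steap4 (-1.60 ± 0.39, p = 0.0048) and Cp, ceruloplasmin (-1.26 ± 0.25, p = 0.00081). The median was -0.85, against 0.02 over all genes. With the prieurianin array at 192 h left out, 6 were lower, against 14.5% of all genes, and 2 higher, against 12.2%, Ptx3 (1.81 ± 0.34, p = 0.00015) and Serpina3c (1.06 ± 0.21, p = 0.00023), and the median was -0.29. Against untreated cells 7 of 15 were lower, where 10.5% of all genes were, and 0 higher, where 11.4% were. Without that array 6 were lower, against 14.5% of all genes, and 2 higher, against 15.0%.

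**Figure D4:**
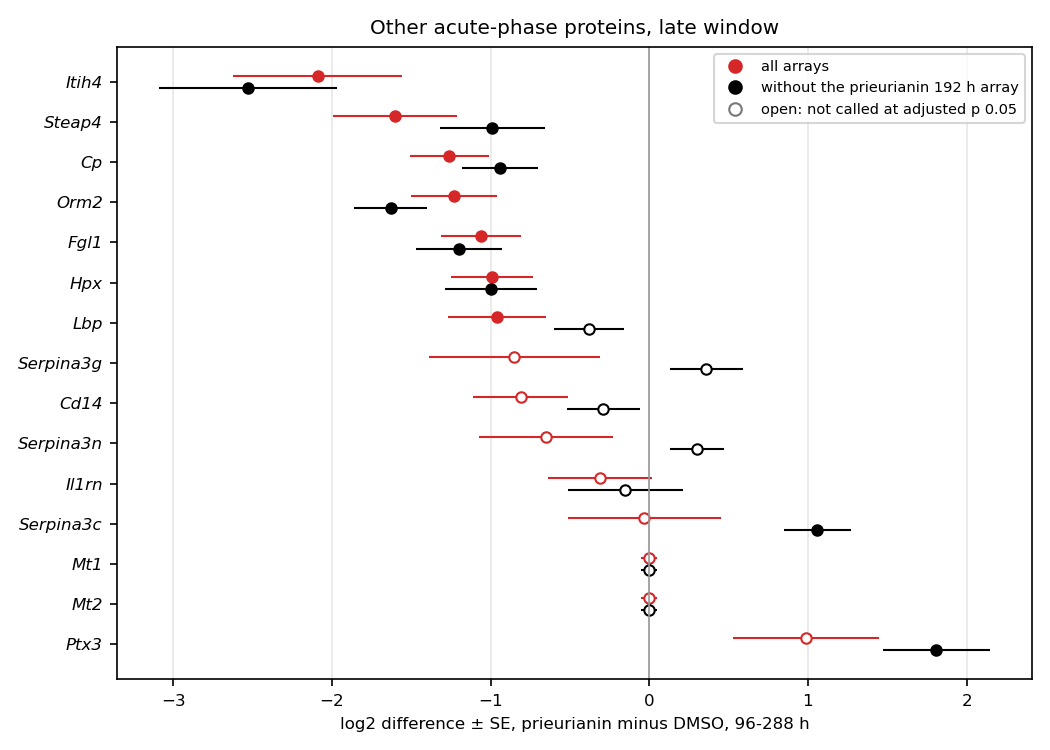
Late log2 difference ± SE, prieurianin minus DMSO, of the 15 tested genes of the list of other acute-phase proteins, with all arrays (red) and without the prieurianin array at 192 h (black); filled points passed an adjusted p of 0.05. Itih4, Steap4, Cp, Orm2, Fgl1 and Hpx are filled below 0 in both settings, and Ptx3 and Serpina3c are filled above 0 only without the array.

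Itih4 in late untreated cells read 64, 140, 981, 3433 and 2448 at 96, 144, 192, 240 and 288 h, and in DMSO 59, 179, 1455, 2399 and 3224. In prieurianin it read 94, 136, 978, 77 and 62. The arms were close to 144 h, and the prieurianin levels were far below both controls at 240 and 288 h. Cp, which carries copper, read 5098, 3492, 8936, 15845 and 15202 in untreated cells and 5002, 3441, 14522, 16733 and 17875 in DMSO. In prieurianin it read 4705, 4432, 2047, 5336 and 4106, below both controls from 192 h on.

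Complement genes outside the members were also tested late against DMSO, where 9.36% of all genes were lower in prieurianin and 7.32% higher. Without the prieurianin array at 192 h those shares were 14.5% and 12.2%. Of the classical and lectin list 9 of 12 were tested, and late 0 were higher and 2 lower in prieurianin than in DMSO (C4a, above, and C1rl, a C1r-like protease, -0.69 ± 0.17, p = 0.0045, and -0.52 ± 0.17, p = 0.019, without the prieurianin array at 192 h). The list's median was -0.29, or -0.11 without that array, against 0.02 over all genes in both. Of the alternative and terminal list 6 of 9 were tested and 2 were lower, Cfd (-3.45 ± 0.60, p = 0.00018) and C8g, a C8 chain (-0.61 ± 0.17, p = 0.011), with a median of -0.15. When the prieurianin array at 192 h, on which Cfd was at the ceiling, was left out, 3 were lower: Cfd (-4.34 ± 0.53, p = 2.2e-07), C8g (-0.78 ± 0.17, p = 0.00064) and C8b, another C8 chain (-0.62 ± 0.17, p = 0.0073), with a median of -0.38. Cfd rose by 10.97 ± 0.76 in untreated cells (p = 3.1e-15), a bound because late values reached the ceiling, and read 7219, 12364, 65487, 804 and 516 in late prieurianin cells. Of the regulators and receptors 10 of 16 were tested, and Cd55, which takes apart the C3-cutting enzymes, was higher in prieurianin than in DMSO late (0.73 ± 0.20, p = 0.010) while Cd46, a cofactor for C3b breakdown, was lower (-0.59 ± 0.19, p = 0.026). Leaving out the prieurianin array at 192 h gave 0.67 ± 0.22 (p = 0.021) and -0.79 ± 0.18 (p = 0.0016). The median of that list was 0.02, or 0.01 without that array. Against untreated cells neither passed, at 0.47 ± 0.20 (p = 0.087) and -0.10 ± 0.19 (p = 0.78).

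Of 27 inducers and signalling genes of the acute phase, 25 were tested, and in untreated cells 1 rose late and 10 fell, where 34.3% of all genes changed and 17.3% fell. Il6 fell most, by 5.14 ± 0.69 on the log2 scale (limma adjusted p = 6.5e-08), then Il11 (-1.92 ± 0.75, p = 0.043) and Il1a (-1.91 ± 0.38, p = 8.2e-05), and the gene that rose was Cebpa (2.97 ± 0.33, p = 8.8e-10). The median was -0.32. Late, prieurianin minus DMSO gave 1 higher, against 7.32% of all genes, Il1a (0.80 ± 0.24, p = 0.019). It gave 3 lower, against 9.36%, Cebpa (-1.20 ± 0.35, p = 0.016), Nfkbiz (-0.46 ± 0.15, p = 0.037) and Tnfrsf1a, a receptor for tumour necrosis factor (-0.30 ± 0.09, p = 0.016). Without the array at 192 h, 4 of 25 were higher, where 12.2% of all genes were: Il6 (1.56 ± 0.25, p = 1.8e-05), Il1a (1.09 ± 0.23, p = 0.0005), Socs3, the feedback inhibitor of that route (0.87 ± 0.16, p = 7.9e-05), and Il6st, the signalling subunit of the interleukin 6 receptor (0.57 ± 0.18, p = 0.015). Cebpa was then -1.78 ± 0.28 (p = 1.1e-05), Tnfrsf1a -0.26 ± 0.09 (p = 0.032), and Nfkbiz no longer passed (-0.16 ± 0.10, p = 0.26).

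Il6 read 182, 260, 24, 1104 and 3266 in late prieurianin cells, against 112, 54, 83, 182 and 451 in untreated cells and 110, 96, 293, 233 and 506 in DMSO. Except at 192 h, Il6 was above both controls in prieurianin. Cebpa read 658, 586, 1545, 195 and 181 in prieurianin and 962 to 1706 in DMSO outside 192 h, where DMSO read 581. Its prieurianin levels were below both controls at all late times but 192 h. Of the receptors and partners of the acute-phase members 5 of 7 were tested. Late, 2 were lower in prieurianin than in DMSO, against 9.36% of all genes. They were Scarb1, a lipoprotein receptor that also binds serum amyloid A (-0.68 ± 0.10, limma adjusted p = 2.9e-05), and Mmp9, the protease that pairs with lipocalin 2 (-0.53 ± 0.15, p = 0.015), with a list median of -0.08. With the prieurianin array at 192 h omitted, the differences were -0.69 ± 0.11 (p = 2.1e-05) and -0.63 ± 0.16 (p = 0.0039), with a median of -0.04.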

How the data were processed

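Total RNA from 54 samples (3 arms, 18 times, 1 array each) was amplified, labelled with Cy5 and hybridised to a Phalanx mouse array, per the labels' protocols. The authors deposited 1 intensity per probe, on a linear scale as far as the range shows (-83 to 65497, 0.47% below 0); scanner, background correction and scaling are not given in the sources used here. Arms and times came from the sample titles. Of 29922 probes, 21020 carried 1 symbol and 8902 carried none. A RefSeq table served to bring 3410 old symbols up to date. Gene coordinates are left out, since no source used here gives the array's build, and promoter windows carry their own build.

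Values were quantile normalised, raised to 0 where negative and used as log2(value + 16). Each of 16637 genes was read through its probe with the highest mean, and 12792 genes, those whose mean over all arrays passed 6.07 (log2; the lower quartile over probes' genes), were tested with limma 3.58.1 in R 4.3.3. The fit for arms had time as a factor, an arm effect per window and no 0 h arrays (28 residual degrees of freedom). The fit for courses had a mean per arm and window and no time factor, with 0 h in the first window (45 residual degrees of freedom). The fits were also run on simulated independent normal values. These had no time course, no dependence between times and no ceiling, so they cannot check how those features affect the p-values. The 54 arrays limit the precision, and nothing says that samples came from separate cultures, so p-values measure the spread between these samples, which may be technical. The 8 genes, the pathway lists and the markers were chosen with earlier results of these data known. The rule for named genes took the members, up to 3 called genes per direction and list with the largest change, and the 3 genes most like each member. Genes named for the array at 192 h, C8b, Il6, Il6st and Socs3 without that array, and Orm2, Fgl1, Hpx and Serpina3c in the plot were chosen after their values were seen. Alternatives were median centring, unscaled values, pseudocounts of 64 and 1, no filter, the mean of a gene's probes, each time left out, the prieurianin array at 192 h left out, fewer arms, time as a random block or no block, and a window's times alone.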

Additional observations from a re-analysis of the deposited data

Results flagged for a closer look

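In sets of 5 to 7 arrays of 1 arm and window, 9 of 72 held a highest or lowest array that stood off from the nearest of the others by more than Dixon's test allows. For independent draws from 1 normal distribution, about 1 in 20 such sets would be flagged. Times along a course and values at the ceiling are not such draws, so 9 of 72 cannot be set against that rate. The prieurianin array at 192 h was the lowest of its 5 late arrays for Serping1 (105), Hp (2130), Saa3 (554) and Lcn2 (12862). In DMSO, Saa3 was lowest at 144 h (58154), and Lcn2 was lowest of 6 at 0 h (64458) and of the late arrays at 192 h (65357). These DMSO values lay just under the ceiling of the scanner range. C2 was highest of 7 in DMSO at 24 h (381), and Cfb was lowest of 6 in prieurianin at 2 h (376).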

How the results depend on the processing

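Of 4560 member values under alternatives, 4328 kept their direction and side of the threshold, 39 lost a call, 37 gained one, 152 values without a call moved and 4 reversed. The reversals were late Serping1, at 0.74 (against DMSO) and 0.79 (against untreated) without the prieurianin array at 192 h; with each time left out it ranged from -0.71 to 0.89 and from -0.57 to 0.64, the upper ends being without 192 h in all arms. Members called for prieurianin minus DMSO at 5 to 48 h (1) became 0 with median centring, a random time block or no time block, 2 without that array and 3 with the window's times alone; late (2) they became 4 without that array and 0 with no time block or the window alone. Against untreated, the 1 at 5 to 48 h became 0 with a random or no time block and 2 without that array or with the window alone, and the late 2 became 4 without that array and 1 with no time block or the window alone. For DMSO minus untreated, 0 became 1 at 5 to 48 h with the window alone, and late without that array or with 2 arms alone. Late courses gave 1 in place of 2 in prieurianin (median centring, no scaling, no filter, 1 arm alone, random block), in DMSO (no scaling) and in untreated cells (median centring, no scaling), 4 in untreated cells without that array, and the course difference against untreated gave 1 in place of 0 with a random block. With each time left out, counts ranged over 1 to 2 (5 to 48 h) and 2 to 4 (late) against either control, 0 to 1 for DMSO minus untreated, 1 to 3, 1 to 2 and 2 to 4 for late courses in prieurianin, DMSO and untreated cells. Apart from the array or times left out, the cause was not tested. No paired analysis was possible because the replicate numbers only follow accession order; arms were matched by time in the fit. Signals at the ceiling (Saa3, Lcn2, late C3) and near the median probe (C2) limit what could be seen.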
